A study of Arabidopsis thaliana with 35 samples.

Results

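The cotyledon warm response was followed from 3 h to 24 h by asking whether the effect of 28 °C against 20 °C differed between the 2 harvests. The quantity tested for each gene was the 28 °C minus 20 °C effect after 24 h minus the same effect after 3 h, and it used the 12 cotyledon arrays among the 35 arrays of the series. The seedlings were Arabidopsis thaliana of the natural accession RRS-7, grown for 5 days at 20 °C in long days of 16 h of light (120 µmol per square metre and second, from white LEDs) and 8 h of dark. Hypocotyl and root of the same design made up the other 23 arrays and serve here for comparison.

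The 4 cotyledon groups were 28 °C for 24 h, 20 °C with the 24 h harvest, 28 °C for 3 h, and 20 °C with the 3 h harvest, with 3 arrays each. Warm plates were moved on day 5 at ZT 7, with ZT counted in hours from lights on. The 24 h groups were harvested at ZT 7 of day 6 and the 3 h groups at ZT 10 of day 5. Each harvest had its own 20 °C control, but length of warmth, time of day and seedling age cannot be told apart in the difference between harvests. Each replicate pooled material collected over several harvest sessions, so the spread between arrays is that between pools. In such organ samples, fewer cells of a type and less RNA per cell cannot be told apart.

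The markers set cotyledon apart from root, and less so from hypocotyl. The photosynthesis genes RCA (Rubisco activase) and SBPASE (a Calvin cycle phosphatase) had medians of 13.8 and 12.7 over the 12 cotyledon arrays, against 8.08 and 5.00 over the 11 root arrays, in log2 RMA units. The root hair expansin EXPA7 had a median of 4.75 in cotyledons and 8.17 in roots, and the root marker AT1G30870 had 5.03 in cotyledons and 10.6 in roots. Over the 12 hypocotyl arrays the medians were 13.4 for RCA, 11.4 for SBPASE, 4.79 for EXPA7 and 6.24 for AT1G30870. Over all probe sets, replicate cotyledon arrays had correlations of 0.992 to 0.995 and array medians of 5.65 to 5.74.

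Warmth makes seedlings elongate and acclimate. Chaperone genes are induced through heat shock factors, cold-acclimation genes decline, and cell wall loosening proteins such as expansins and xyloglucan endotransglucosylase/hydrolases (XTH) take part in growth. Ribosome production begins in the nucleolus, where RNA polymerase I makes the precursor of ribosomal RNA and assembly factors join it with ribosomal proteins. Many plant transcripts also follow the circadian clock, so a harvest at another time of day starts from another baseline.

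The warm effect differed between 24 h and 3 h for 2185 of 13355 genes (16.4%; limma's moderated test, Benjamini-Hochberg adjusted p under 0.05). The difference was higher for 1289 genes (9.65%) and lower for 896 (6.71%), and it was at least 2-fold for 291 and 104 of them. Without the 23 arrays of other organs 1533 genes passed, 964 higher and 569 lower. The effect after 24 h passed for 3805 genes (28.5%), 2009 higher (15%) and 1796 lower (13.4%) at 28 °C. The effect after 3 h passed for 2985 (22.4%), 1375 higher (10.3%) and 1610 lower (12.1%). The balance of the 2 directions depended on the scaling of the arrays. With each array centred on its median, 1597 genes were higher and 2577 lower after 24 h, 1208 and 1753 after 3 h, and 1139 and 1167 for the difference. With arrays centred on 7 reference genes these were 2274 and 1345, 1631 and 1294, and 1221 and 812. Across genes the 2 effects, which share no array, correlated at r = 0.376. That value is a description, since genes are not independent replicates. The median standard error of a difference was 0.15 log2 and that of an effect 0.11.

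The 2185 genes were sorted by the size and sign of both effects. A growing response passed after 24 h and was larger there, and its 3 h effect had the same sign or did not pass. A fading response passed after 3 h and was larger there, and its 24 h effect had the same sign or did not pass. A turning response passed at both harvests with opposite signs. Growing rises numbered 531 (3.98% of all genes) and growing falls 506 (3.79%). Fading rises numbered 250 (1.87%) and fading falls 390 (2.92%). Turning up, that is higher at 28 °C after 24 h and lower after 3 h, were 320 genes (2.4%), and turning down were 69 (0.517%). The remaining 119 (0.891%) met none of these rules. Among growing responses the 3 h effect had also passed with the same sign for 75 rises and 72 falls, and among fading responses the 24 h effect had passed with the same sign for 34 rises and 36 falls. The 2 estimates had opposite signs for 295 growing rises, 296 growing falls, 148 fading rises and 252 fading falls, and for 5575 of all genes. In the growing and fading genes among them, the effect at the other harvest did not pass. Growing rises and falls were 412 and 739 with arrays centred on their medians, and 568 and 404 with arrays centred on the reference genes. A missed threshold at the other harvest does not show that there was no effect there.

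**Figure D1:**
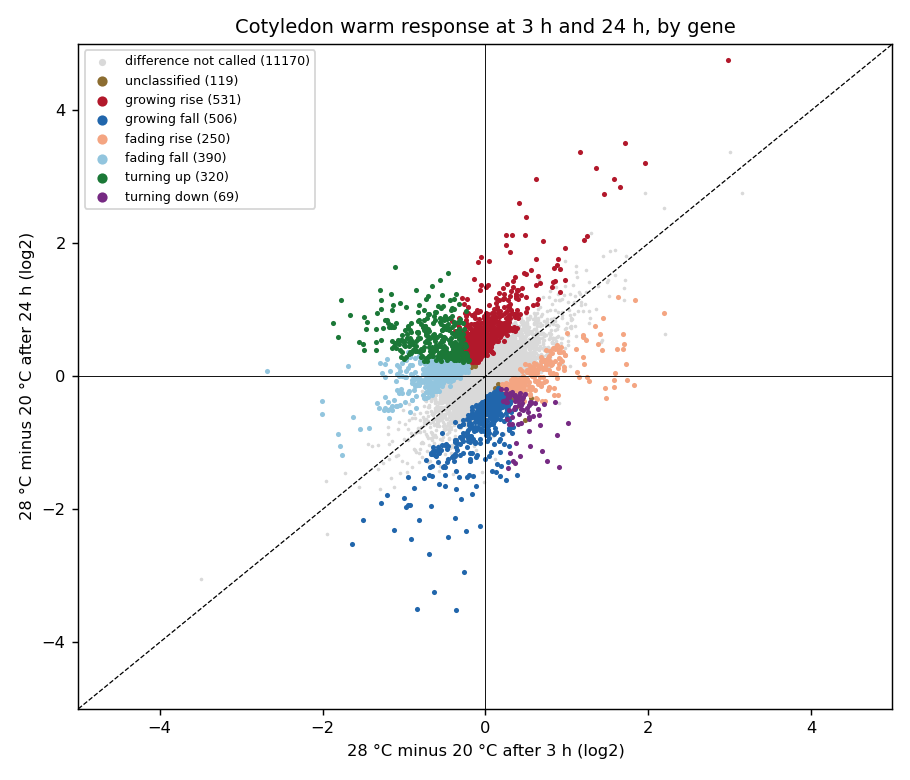
Each point is a gene, with the cotyledon effect of 28 °C minus 20 °C after 3 h on the x axis and after 24 h on the y axis, both in log2, coloured by class, with the number of genes in the legend and the line of equal effects dashed. The 320 turning-up genes lie at the upper left, and the 69 turning-down genes at the lower right.

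Iron deficiency genes were among the largest growing rises. AT1G47400, a locus on the iron deficiency list, had the largest difference among all growing rises. It measured 9.84, 9.84 and 9.67 at 28 °C after 24 h, against 6.99, 6.62 and 6.84 at 20 °C. After 3 h it measured 8.43, 8.64 and 8.43 at 28 °C, against 8.06, 7.74 and 7.83 at 20 °C. The groups did not overlap at either harvest, and the 20 °C arrays were lower at the later harvest. The effect was 2.97 ± 0.11 log2 (standard error) after 24 h and 0.62 ± 0.11 after 3 h, a difference of 2.34 ± 0.16 (limma adjusted p = 1.26e-12).

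BHLH101, a bHLH transcription factor induced when iron is short, measured 6.17, 6.65 and 6.20 at 28 °C after 24 h, against 3.86, 3.68 and 3.64 at 20 °C. After 3 h it measured 4.14, 3.91 and 4.15 at 28 °C, against 3.61, 3.78 and 3.58 at 20 °C. The 20 °C arrays were under 4.03, the cutoff used where dim genes were left out. Only the 24 h arrays at 28 °C stood apart by more than 2-fold, and the difference was 2.21 ± 0.19 (limma adjusted p = 2.15e-10). PYE (POPEYE), a bHLH repressor of iron homeostasis genes, had effects of 2.12 ± 0.10 after 24 h and 0.49 ± 0.10 after 3 h. Of the 6 measured genes on this list, these 3 had a higher difference and 0 a lower one (9.65% and 6.71% over all genes). The list median was 0.97 beside −0.03 over all genes. The other 3 did not pass, and among them AT3G13610 (F6'H1, which makes iron-mobilising coumarins) had a difference of −0.43 ± 0.24 and was lower at 28 °C after 24 h (−0.56 ± 0.17).

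Of 19 measured genes on the chaperone lists, 16 were higher and 0 lower at 28 °C after 24 h, against 10 higher and 1 lower after 3 h. Over all genes, 15% were higher and 13.4% lower after 24 h, and 10.3% higher and 12.1% lower after 3 h. Of 8 measured small heat shock protein genes, 7 were higher at 28 °C after 24 h and 5 after 3 h, with median effects of 2.12 and 0.87. The difference was higher for 4 and lower for 0 (9.65% and 6.71% over all genes). AT5G37670, on that list, measured 6.29, 6.37 and 5.70 at 28 °C after 24 h, against 3.88, 4.09 and 4.02 at 20 °C. After 3 h it measured 4.23, 4.70 and 4.60 at 28 °C, against 4.28, 4.08 and 4.19 at 20 °C, and the groups overlapped. Its difference was 1.79 ± 0.22 (limma adjusted p = 1.64e-07). The 20 °C arrays at 3.88 and 4.02 after 24 h were under the dim cutoff of 4.03. AT5G51440 had effects of 3.21 ± 0.18 after 24 h and 1.96 ± 0.18 after 3 h. AT1G53540, which had the largest 3 h effect on this list, did not pass the difference: its effects were 3.38 ± 0.19 after 24 h and 3.00 ± 0.19 after 3 h. All its 20 °C arrays, at 3.46 to 3.79, were under that cutoff, so the sizes of both effects are uncertain.

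On the list of 11 genes for Hsp70, Hsp90, Hsp100 and their helpers, 9 were higher and 0 lower after 24 h, against 5 higher and 1 lower after 3 h, with median effects of 0.42 and 0.02. The difference was higher for 6 and lower for 0 (9.65% and 6.71% over all genes), and with the 12 cotyledon arrays alone 3 were higher. Fes1B, a relative of the listed Fes1A, was not on the list, and its difference was lower (−1.45 ± 0.14). AT5G48570, also known as ROF2 or FKBP65, encodes a heat-induced immunophilin. It measured 7.84, 7.73 and 7.64 at 28 °C after 24 h, against 4.17, 4.14 and 4.76 at 20 °C. After 3 h it measured 6.36, 6.72 and 5.97 at 28 °C, against 5.26, 4.84 and 5.46 at 20 °C. No groups overlapped, and the difference was 2.22 ± 0.26 (limma adjusted p = 8.20e-08). Hop3, a co-chaperone that links Hsp70 with Hsp90, had effects of 2.85 ± 0.15 after 24 h and 1.66 ± 0.15 after 3 h. At 20 °C after 24 h Hop3 measured 3.81 to 3.93, under the dim cutoff of 4.03, so the size of its 24 h effect is uncertain. Hop1, its relative, turned up, with 0.37 ± 0.11 after 24 h and −0.52 ± 0.11 after 3 h. The calls of Fes1A (difference 0.60 ± 0.18) and Hsp70-2 (0.45 ± 0.13) each ended when any 1 of 4 single arrays was left out. For Fes1A these were 3 h 20 °C replicate 1, 24 h 20 °C replicate 2, 3 h 28 °C replicate 3 and 24 h 28 °C replicate 2, with values of 0.44 to 0.53. For Hsp70-2 these were 3 h 20 °C replicate 3, 24 h 20 °C replicate 1, 3 h 28 °C replicate 1 and 24 h 28 °C replicate 1, with values of 0.34 to 0.39.

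Other growing rises encoded enzymes. PPDK (pyruvate, orthophosphate dikinase) measured 9.59, 9.90 and 9.66 at 28 °C after 24 h, against 7.95, 7.94 and 7.87 at 20 °C. After 3 h it measured 7.02, 7.0 and 6.61 at 28 °C, against 6.95, 6.99 and 6.84 at 20 °C. The 3 h groups overlapped and the 24 h groups did not, and the difference was 1.85 ± 0.16 (limma adjusted p = 1.69e-10). BCAT4, an aminotransferase that starts methionine chain elongation for aliphatic glucosinolates, had effects of 2.13 ± 0.09 after 24 h and 0.26 ± 0.09 after 3 h. The asparaginase gene ASPGB1 had 2.04 ± 0.16 after 24 h and 0.71 ± 0.16 after 3 h. DFR, the dihydroflavonol reductase of anthocyanin synthesis, had 1.09 ± 0.20 after 24 h and −0.26 ± 0.20 after 3 h, and the 3 h effect did not pass. Of 4 measured flavonoid genes, the difference was higher for 2, DFR and the flavonol glycosyltransferase UGT78D1 (0.81 ± 0.22), and lower for 0. Over all genes the shares were 9.65% and 6.71%.

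Among growing falls, AT5G62360 had the largest difference. It measured 7.04, 7.01 and 6.90 at 28 °C after 24 h, against 10.57, 10.44 and 10.47 at 20 °C. After 3 h it measured 11.00, 10.86 and 11.09 at 28 °C, against 11.36, 11.42 and 11.27 at 20 °C. The groups did not overlap at either harvest, with effects of −3.51 ± 0.12 after 24 h and −0.37 ± 0.12 after 3 h and a difference of −3.14 ± 0.17 (limma adjusted p = 1.31e-14). AT2G39920 and AT4G16146, also known by locus code alone here, had differences of −2.66 ± 0.23 and −2.68 ± 0.18.

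Cold-regulated genes were lower at 28 °C at both harvests: 6 of 6 measured after 24 h and 5 of 6 after 3 h, with median effects of −1.86 and −1.57. The difference was lower for 3 and higher for 1 (6.71% and 9.65% over all genes). Over all genes, 13.4% were lower after 24 h and 12.1% after 3 h. The dehydrin gene LTI30 measured 4.33, 4.97 and 4.77 at 28 °C after 24 h, against 6.77, 8.23 and 7.07 at 20 °C. After 3 h it measured 6.43, 6.18 and 6.49 at 28 °C, against 6.16, 7.61 and 7.39 at 20 °C, where the groups overlapped. Its difference was −1.97 ± 0.38 (limma adjusted p = 0.000232).

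COR15A and COR15B, which encode cryoprotective chloroplast proteins, were already lower at 3 h and fell further, with differences of −0.65 ± 0.19 and −0.89 ± 0.26. The COR15A call ended without 3 h 20 °C replicate 1 (−0.58) or 3 h 28 °C replicate 2 (−0.55), and the COR15B call without 24 h 20 °C replicate 3 (−0.74). COR27, a cold-induced gene tied to the clock, measured 3.38, 3.31 and 3.14 at 28 °C after 24 h, against 4.50, 4.51 and 4.39 at 20 °C, and 7.21, 7.03 and 7.15 at 28 °C after 3 h, against 9.0, 8.90 and 8.78 at 20 °C. Its difference was 0.58 ± 0.16, and its own level changed between harvests by −3.85 at 28 °C and by −4.43 at 20 °C. The 24 h arrays at 28 °C were under the same 4.03, so the size of its 24 h effect is uncertain. Its call ended at an adjusted p under 0.01 and against a 1.2-fold minimum.

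Other growing falls had various roles. PORB, a protochlorophyllide oxidoreductase of chlorophyll synthesis, had effects of −1.84 ± 0.20 after 24 h and −0.30 ± 0.20 after 3 h. The chloroplast lipocalin gene CHL had −1.32 ± 0.07 after 24 h and 0.14 ± 0.07 after 3 h. The beta-tubulin gene TUB5 had −1.28 ± 0.08 after 24 h and −0.18 ± 0.08 after 3 h, and the beta-glucosidase gene BGLU44 had −1.65 ± 0.13 and −0.11 ± 0.13. MUTE, a transcription factor of stomatal development, had −0.42 ± 0.11 after 24 h and 0.18 ± 0.11 after 3 h. None of these passed after 3 h. MUTE was the 1 of 3 measured stomatal lineage genes whose difference passed, beside 16.4% of all genes.

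Of 69 plastid-encoded genes, 34 were lower at 28 °C after 24 h and 2 higher, against 4 lower and 1 higher after 3 h, with median effects of −0.46 and −0.14. Over all genes, 13.4% were lower and 15% higher after 24 h, and 12.1% lower and 10.3% higher after 3 h. The difference passed for 5, all lower, a share (7.25%) near the 6.71% lower over all genes, and this count ranged between 0 and 13 when single arrays were left out. It was 0 without 3 h 20 °C replicate 2, 24 h 20 °C replicate 3, 3 h 28 °C replicate 1 or 24 h 28 °C replicate 2. It was 3 without 24 h 20 °C replicate 2 or 3 h 28 °C replicate 3, 8 without 3 h 28 °C replicate 2, 11 without 3 h 20 °C replicate 3 and 13 without 24 h 28 °C replicate 3.

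**Figure D2:**
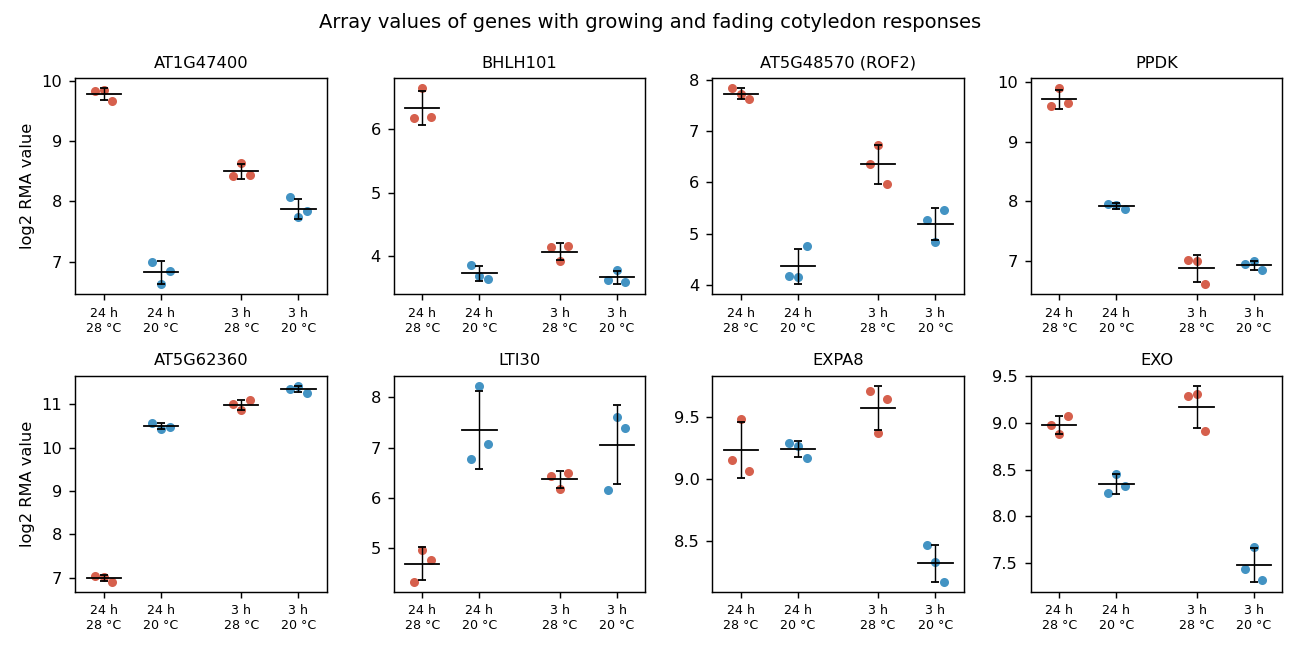
Log2 RMA values of 8 genes in each cotyledon array, with 28 °C in red and 20 °C in blue, and the mean and SD of 3 arrays as lines and bars. In AT1G47400, BHLH101, AT5G48570 and PPDK the 24 h arrays at 28 °C are highest, in AT5G62360 and LTI30 they are lowest, and in EXPA8 the 2 temperatures overlap only after 24 h.

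Fading rises included 3 expansin and XTH genes. The expansin gene EXPA8 measured 9.15, 9.49 and 9.06 at 28 °C after 24 h, against 9.29, 9.27 and 9.17 at 20 °C. After 3 h it measured 9.70, 9.37 and 9.64 at 28 °C, against 8.47, 8.33 and 8.17 at 20 °C. The temperatures overlapped after 24 h and did not after 3 h. The effects were −0.01 ± 0.12 after 24 h and 1.25 ± 0.12 after 3 h, with a difference of −1.26 ± 0.17 (limma adjusted p = 1.21e-06). At 20 °C this gene was 0.92 log2 higher at the later harvest, and at 28 °C its 24 h minus 3 h change was −0.34. The expansin-like EXLA1 had effects of −0.01 ± 0.14 after 24 h and 1.15 ± 0.14 after 3 h, with a change of 0.05 between harvests at 20 °C and of −1.11 at 28 °C.

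EXO (EXORDIUM), a growth gene induced by brassinosteroids, measured 8.97, 8.88 and 9.08 at 28 °C after 24 h, against 8.25, 8.46 and 8.33 at 20 °C. After 3 h it measured 9.29, 9.31 and 8.92 at 28 °C, against 7.44, 7.68 and 7.32 at 20 °C. It remained higher at 28 °C with no overlap at either harvest, and its rise faded by 1.06 ± 0.14. Of 29 measured expansin and XTH genes, the difference was lower for 5 (17.2%, beside 6.71% of all genes) and higher for 2 (6.90%, beside 9.65%), with a median of −0.10. The lower 5 were EXPA8, EXLA1, XTH18, EXPB1 and XTH32, of which EXPB1 and XTH32 were growing falls. The higher 2 were EXPA4 and EXPA16. The XTH18 call (−0.65 ± 0.19) ended without 3 h 20 °C replicate 3, 3 h 28 °C replicate 2 or 24 h 28 °C replicate 3, with values of −0.50 to −0.58.

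Other fading rises were LHCB4.2, a minor light-harvesting antenna protein (0.14 ± 0.14 after 24 h and 0.97 ± 0.14 after 3 h), and CRT1b, a calreticulin that aids folding in the endoplasmic reticulum (0.03 ± 0.11 after 24 h and 0.82 ± 0.11 after 3 h). LHCB4.2 at 20 °C measured 12.6, 12.6 and 12.5 after 24 h, against 11.6, 11.3 and 11.4 after 3 h. At 28 °C it measured 12.7, 12.8 and 12.6, against 12.3, 12.5 and 12.5, so its level there did not fall. The difference passed for 1 of 8 measured light-harvesting and nuclear photosystem genes (12.5%), LHCB4.2. It passed for 1 of 5 endoplasmic reticulum folding genes (20%), CRT1b. Over all genes it passed for 16.4%, which is near both shares. ATG8E, an autophagy protein, had −0.16 ± 0.17 after 24 h and 0.79 ± 0.17 after 3 h. The 3 largest differences among fading rises belonged to AT5G48490 (−1.95 ± 0.19), AT3G15760 (−1.81 ± 0.27) and AT2G32150 (−1.79 ± 0.15). Of 11 measured Aux/IAA and GH3 genes, which respond to auxin, the difference passed for 0 in the limma fit (16.4% over all genes). At an unadjusted p under 0.05 it passed for 5 of them, and for 3669 of all 13355 genes. GH3.3, which conjugates auxin to amino acids, had the most negative value, −0.59 ± 0.21.

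Genes of ribosome production moved mostly one way. Of 11 measured genes for RNA polymerase I and nucleolar assembly factors, 9 were higher and 0 lower at 28 °C after 24 h, while 0 were higher and 10 lower after 3 h. The difference was higher for 10 and lower for 0 (9.65% and 6.71% over all genes). The list median was 1.93 beside −0.03 over all genes, and 8 of the 10 turned up. The count was also 10 in each fit with 1 cotyledon array left out. The list was chosen with earlier results of these data known, so its direction is a description.

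NRPA1 encodes the largest RNA polymerase I subunit. It measured 6.37, 6.41 and 6.10 at 28 °C after 24 h, against 5.61, 5.48 and 5.35 at 20 °C. After 3 h it measured 5.22, 5.55 and 5.44 at 28 °C, against 6.60, 6.91 and 7.07 at 20 °C. The groups did not overlap at either harvest and stood in opposite order. The effects were 0.81 ± 0.11 after 24 h and −1.45 ± 0.11 after 3 h, with a difference of 2.26 ± 0.15 (limma adjusted p = 1.26e-12). Between harvests NRPA1 changed by 0.89 at 28 °C and by −1.38 at 20 °C.

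NRPA2, the second largest subunit of that enzyme, measured 7.90, 7.77 and 7.92 at 28 °C after 24 h, against 6.84, 6.95 and 6.80 at 20 °C, and 7.14, 7.07 and 7.08 at 28 °C after 3 h, against 8.13, 8.29 and 8.33 at 20 °C. Its difference was 2.15 ± 0.13. The nucleolar list members AT4G04940 (2.67 ± 0.23), AT1G06720 (2.58 ± 0.18) and AT2G40360 (2.03 ± 0.14) also turned up, as did AT5G14520, or PESCADILLO, which takes part in making the large ribosomal subunit (1.64 ± 0.14). On the whole list the median change between harvests was 0.77 at 28 °C and −1.05 at 20 °C.

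Other RNA polymerases followed in part. Of 12 measured subunit genes of the nuclear RNA polymerases, among them NRPA1 and NRPA2, the difference was higher for 8 and lower for 0. Over all genes the shares were 9.65% and 6.71%. NRPC1, the largest subunit of RNA polymerase III, measured 5.88, 5.71 and 5.73 at 28 °C after 24 h, against 4.99, 4.28 and 4.58 at 20 °C. After 3 h it measured 4.91, 4.65 and 4.62 at 28 °C, against 5.02, 5.20 and 5.26 at 20 °C. The 3 h groups were close but did not overlap, and the difference was 1.58 ± 0.19 (limma adjusted p = 7.88e-08). NRPC2, its partner subunit, had 0.72 ± 0.11 after 24 h and −0.45 ± 0.11 after 3 h.

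Of 130 measured cytosolic ribosomal protein genes, 21 were higher and 14 lower at 28 °C after 24 h, and 0 were higher and 97 lower after 3 h, with median effects of 0.02 and −0.45. Over all genes, 15% were higher and 13.4% lower after 24 h, and 10.3% higher and 12.1% lower after 3 h. The 24 h counts were near these shares and the 3 h counts were not. Of 47 measured genes of the small (40S) subunit, 32 were lower and 0 higher at 28 °C after 3 h, and after 24 h 9 were higher and 1 lower. Of 83 genes of the large (60S) subunit, 65 were lower and 0 higher after 3 h, and after 24 h 12 were higher and 13 lower. The difference was higher for 33 and lower for 0 of the 40S genes, and higher for 49 and lower for 1 of the 60S genes, with medians of 0.49 and 0.43. The higher shares were 70.2% of the 40S and 59.0% of the 60S genes, beside 9.65% of all genes. Fading falls made up 23 of the 40S and 36 of the 60S genes, and 5 and 11 turned up. AT2G32220, on the 60S list, had effects of 0.15 ± 0.10 after 24 h and −1.69 ± 0.10 after 3 h. AT2G40010, the 60S gene with a lower difference, was a growing fall, with −1.10 ± 0.10 after 24 h and −0.35 ± 0.10 after 3 h. AT5G39850, on the 40S list, was a growing rise, with 1.72 ± 0.13 after 24 h and −0.09 ± 0.13 after 3 h. Ribosomal protein genes come in near-identical copies that can share probes.

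**Figure D3:**
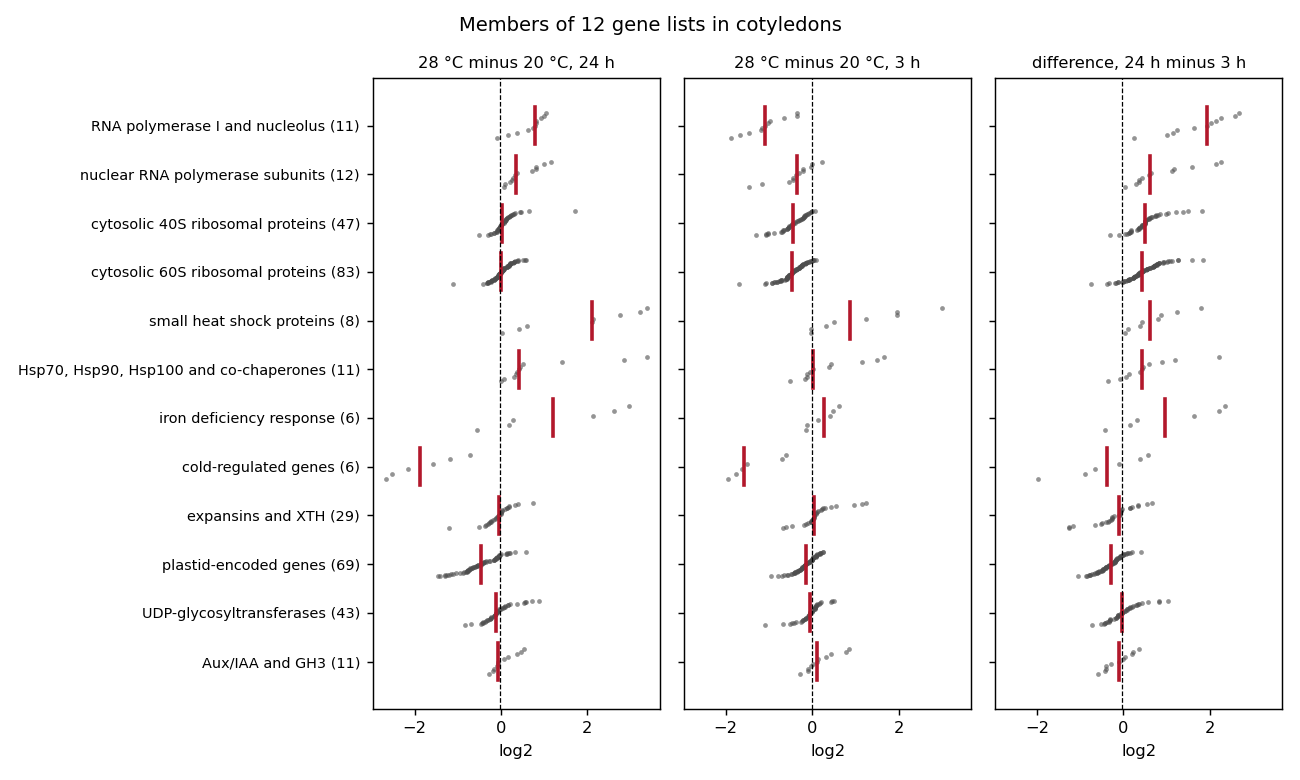
Each point is a gene of the named list, with the 28 °C minus 20 °C effect after 24 h, the effect after 3 h and the difference in 3 panels (log2). Red bars are list medians and the dashed line is the median of all 13355 genes. The RNA polymerase I and nucleolus list has medians of 0.79, −1.08 and 1.93.

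Of all 320 turning-up genes, 199 had a difference of at least 2-fold, with median effects of 0.52 after 24 h and −0.55 after 3 h. The largest difference was that of AT3G06530, which measured 7.16, 6.81 and 7.02 at 28 °C after 24 h, against 5.78, 5.83 and 5.94 at 20 °C. After 3 h it measured 5.74, 5.85 and 5.80 at 28 °C, against 7.38, 7.56 and 7.77 at 20 °C. The order of the temperatures was reversed with no overlap, and the difference was 2.92 ± 0.16 (limma adjusted p = 1.45e-14).

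JMT, which methylates jasmonic acid, measured 6.15, 6.13 and 6.32 at 28 °C after 24 h, against 4.85, 4.82 and 4.85 at 20 °C. After 3 h it measured 4.16, 4.20 and 4.27 at 28 °C, against 4.69, 4.89 and 4.99 at 20 °C. Its 20 °C level hardly differed between harvests (−0.02), and its 28 °C level changed by 1.99. CIL, a relative of the chloroplast import regulator CIA2, had 0.85 ± 0.11 after 24 h and −1.21 ± 0.11 after 3 h. ICU2, the catalytic subunit of DNA polymerase alpha, had 0.54 ± 0.14 after 24 h and −0.91 ± 0.14 after 3 h. PPR596, a pentatricopeptide repeat protein, had 0.80 ± 0.09 and −0.92 ± 0.09, and TRZ3, a tRNase Z that trims transfer RNA ends, had 1.06 ± 0.09 and −0.58 ± 0.09.

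Between harvests, 293 of the 320 turning-up genes were lower at 20 °C after 24 h than after 3 h and 273 were higher at 28 °C, with 246 doing both. Over all genes, 11.1% were higher and 9.11% lower at 28 °C after 24 h than after 3 h, and 6.82% were higher and 10.7% lower at 20 °C. As counts these were 1486 and 1217 at 28 °C, and 911 and 1434 at 20 °C. With arrays centred on the reference genes they were 1714 and 865 at 28 °C, and 1077 and 1092 at 20 °C, and centred on medians 1313 and 1508 at 28 °C, and 962 and 1312 at 20 °C. These changes use the same arrays as the classes and are given as a description of which arm moved. For growing rises the median change was 0.36 at 28 °C and −0.26 at 20 °C, and for growing falls −0.38 and 0.18.

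The largest difference among fading falls was that of AT3G59670. It measured 5.67, 5.87 and 5.85 at 28 °C after 24 h, against 5.58, 5.46 and 6.09 at 20 °C, and 4.55, 4.40 and 4.90 at 28 °C after 3 h, against 7.18, 7.52 and 7.21 at 20 °C. The groups overlapped after 24 h only, and the difference was 2.77 ± 0.21 (limma adjusted p = 1.03e-11). PRH75, a nucleolar RNA helicase, had effects of 0.01 ± 0.11 after 24 h and −1.06 ± 0.11 after 3 h. PRL (PROLIFERA), a subunit of the replicative MCM helicase, had 0.11 ± 0.13 and −0.77 ± 0.13, and TRM82, part of a transfer RNA methyltransferase, had 0.08 ± 0.13 and −0.73 ± 0.13. UGT76C2, which glucosylates cytokinins, had −0.07 ± 0.10 after 24 h and −1.09 ± 0.10 after 3 h.

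Turning-down genes were higher at 28 °C after 3 h and lower after 24 h. GI (GIGANTEA), a component of the circadian clock and of photoperiodic flowering, measured 7.32, 7.40 and 7.39 at 28 °C after 24 h, against 8.66, 8.60 and 8.64 at 20 °C. After 3 h it measured 8.76, 8.78 and 8.73 at 28 °C, against 8.48, 8.40 and 8.39 at 20 °C. The order of the temperatures was reversed with no overlap, and the difference was −1.60 ± 0.10 (limma adjusted p = 1.57e-13). GI changed between harvests by −1.39 at 28 °C and by 0.21 at 20 °C.

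Fes1B, of the family of Hsp70 nucleotide exchange factors, had effects of −1.15 ± 0.10 after 24 h and 0.30 ± 0.10 after 3 h. GAMMA-VPE, a vacuolar processing protease, had −0.39 ± 0.11 and 0.55 ± 0.11, and AILP1, an aluminium-induced-like protein, had −0.48 ± 0.09 and 0.51 ± 0.09. AT5G19120 had the largest difference of this class, −2.26 ± 0.26. It measured 4.58, 5.05 and 4.95 at 28 °C after 24 h, against 6.09, 6.73 and 5.86 at 20 °C, and 7.20, 6.80 and 6.95 at 28 °C after 3 h, against 5.93, 6.56 and 5.77 at 20 °C.

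**Figure D4:**
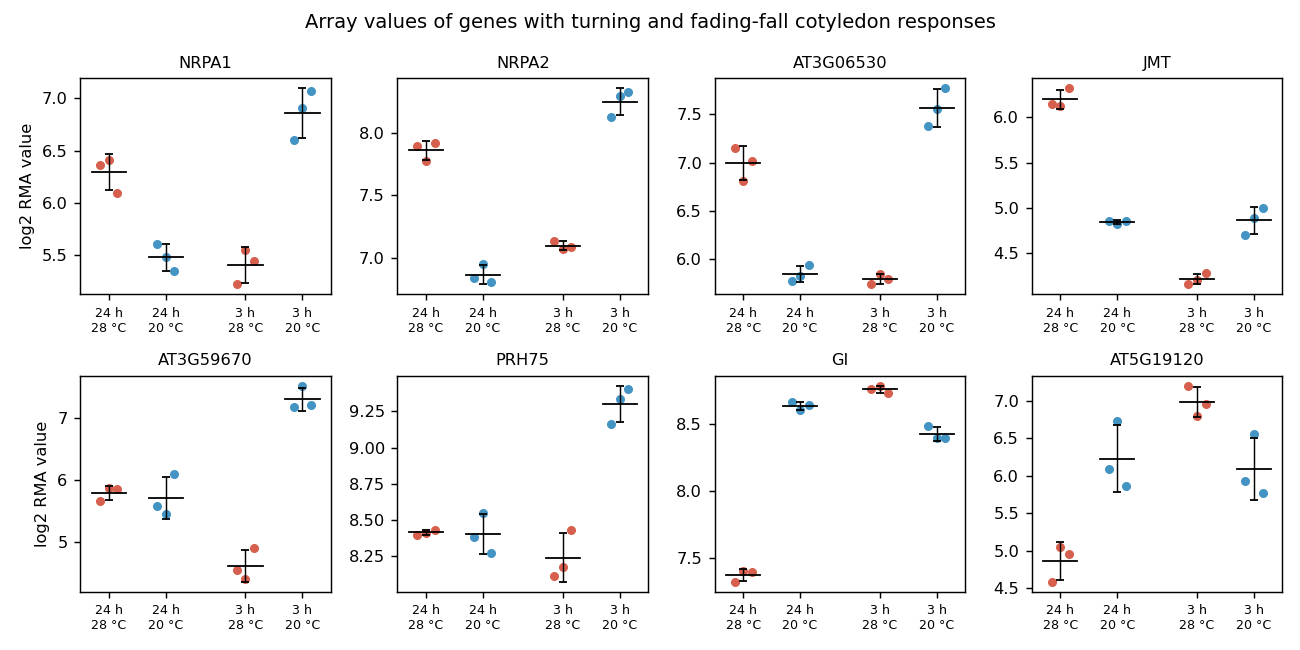
Log2 RMA values of 8 genes in each cotyledon array, with 28 °C in red and 20 °C in blue, and the mean and SD of 3 arrays. In NRPA1, NRPA2, AT3G06530 and JMT the 28 °C arrays are above the 20 °C arrays after 24 h and below them after 3 h, in GI and AT5G19120 the reverse holds, and in AT3G59670 and PRH75 the temperatures overlap after 24 h.

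The same difference was smaller in number in the other organs. It passed for 88 genes in hypocotyl (0.659%; 0.352% higher and 0.307% lower) and for 447 in root (3.35%; 1.92% higher and 1.42% lower), where 28 °C after 3 h had 2 arrays. Counts of calls do not test whether organs differ, so the organ differences were tested themselves. The cotyledon difference was higher than the hypocotyl's for 436 genes (3.26%) and lower for 201 (1.51%), 4.77% together, and higher than the root's for 926 (6.93%) and lower for 549 (4.11%), 11% together. With arrays centred on the reference genes, the counts against root were 695 and 677. Across genes, the cotyledon difference correlated with that of hypocotyl at r = 0.413 and with that of root at r = 0.052, with no array shared.

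Of the 320 turning-up genes, the cotyledon difference was higher than the hypocotyl's for 220 and higher than the root's for 289, and their median difference was 1.18 in cotyledon, against 0.28 in hypocotyl and 0.05 in root. These genes were selected by a positive cotyledon difference that passed. Higher values in cotyledon are in part fixed by that selection, so these counts and medians do not test the organs. On the RNA polymerase I and nucleolus list the difference was higher than in hypocotyl for 9 of 11 genes and higher than in root for 10, with medians of 1.93 in cotyledon, against 0.31 in hypocotyl and 0.05 in root. Of the 83 large-subunit ribosomal protein genes, it was higher than in hypocotyl for 20 and higher than in root for 52. Over all genes it was higher than in hypocotyl for 3.26% and higher than in root for 6.93%. The lists were chosen with earlier results of these data known, so these counts are a description. In root, 28 °C after 3 h had 2 arrays. The NRPA1 difference was 2.26 in cotyledon, against 0.47 in hypocotyl and 0.05 in root.

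JMT had a difference of 2.01 in cotyledon, against 0.07 in hypocotyl and −0.10 in root, and PPDK had 1.85 in cotyledon, against −0.07 and −0.37. JMT was dim in the other organs, with array medians of 3.73 in hypocotyl and 3.64 in root, under the 4.03 cutoff for dim genes. Its values near 0 there are therefore uncertain. EXPA8 ran the other way between organs, with −1.26 in cotyledon, against −0.22 in hypocotyl and 0.86 in root. For DFR the cotyledon value of 1.35 and the hypocotyl value of 1.53 did not differ by the test (limma adjusted p = 0.895), which does not show that they are equal. Over both chaperone lists, 19 genes, the median difference was 0.44 in cotyledon, against −0.07 in hypocotyl and −0.38 in root. The difference was higher in cotyledon than in hypocotyl for 4 and higher than in root for 11. Over all genes these shares were 3.26% and 6.93%, and the chaperone counts too are a description.

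**Figure D5:**
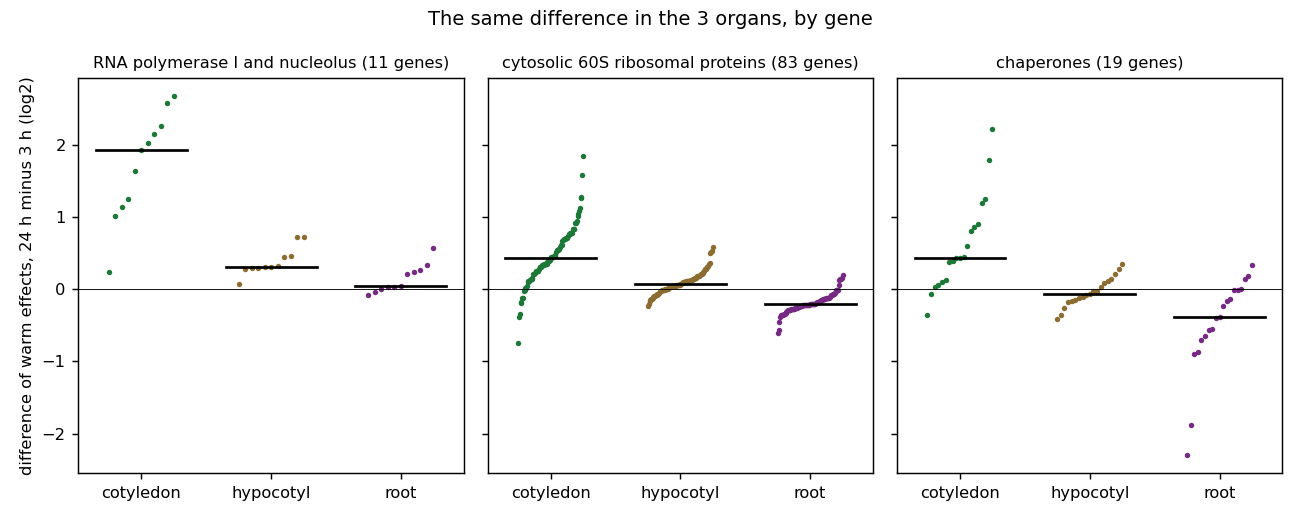
Each point is a gene, with the difference of warm effects (24 h minus 3 h, log2) in cotyledon, hypocotyl and root, and bars at the list medians. The 11 RNA polymerase I and nucleolus genes have medians of 1.93, 0.31 and 0.05.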

How the data were processed

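Biotin-labelled cRNA from 35 RNA samples was measured on Affymetrix arrays. The values are the authors' deposited log2 values per probe set, made with RMA and limma per the submitters' processing notes; versions, and which arrays were normalised together, are not given in the sources used here. Of 22746 probe sets, 13513 named 1 gene, 503 several and 8730 none in the probe annotation. The 13513 gave 13355 genes, each by its probe set of highest mean, and 13285 matched the RefSeq annotation, which gave symbols only. Ribosomal and other families were taken from locus codes, RefSeq symbols and synonyms, and the ribosomal codes were added after the files had been opened. A symbol other than the locus code was given for 1535 genes, so families taken from symbols may miss members. Lists by code were measured in part: 6 of 23 iron deficiency genes, 6 of 21 cold-regulated genes and 4 of 16 flavonoid genes. For RNA polymerase I and nucleolus it was 11 of 21, and for small heat shock proteins 8 of 15. Planned promoter motifs were not searched.

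One linear model of the 12 groups was fitted over the 35 arrays (limma 3.58.1, R 4.3.3, eBayes defaults, 23 residual degrees of freedom). P-values were two-sided and adjusted by the Benjamini-Hochberg method over all genes within each comparison, with 0.05 as the threshold. Precision is limited by the number of arrays. The procedure was tested on simulated data with independent noise, with changes added only to the cotyledon group at 28 °C after 24 h. That simulation did not test fading or turning responses. Samples were not treated as pairs by the replicate numbers that 28 °C and 20 °C share. Deviations correlated at −0.05 to 0.15 for the same number and at −0.18 to 0.09 for different numbers. These small correlations were not tested and do not exclude a weak pairing.

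The comparison, gene lists and rule for names were chosen with earlier results of these data known. The rule took, in each class, the 8 largest differences with a symbol and the 3 with a locus code alone. It also took up to 5 called genes of each list and 11 genes named in advance. For each organ difference it took the 4 most positive and 4 most negative genes. These were sought only among genes with a symbol that passed both the cotyledon difference and the organ difference. GH3.3, AT3G13610, XTH32, EXPA16, AT2G40010 and AT5G14520 fall outside the rule and were chosen after their values were seen. Alternatives changed the arrays fitted, eBayes options, a filter on dim genes (cotyledon mean above the 25th percentile of all probe sets), 2 array centrings, probe set summaries, a replicate block, the threshold, a minimum fold, and left out each cotyledon array.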

Additional observations from a re-analysis of the deposited data

Results flagged for a closer look

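The test of the difference between 24 h and 3 h itself passed for 2185 genes, which are those described above. The cotyledon difference was also tested against the other organs. It was higher than in hypocotyl for 436 genes and lower for 201, and higher than in root for 926 and lower for 549. The genes named here were sought only among those with a symbol that also passed the cotyledon difference. Named genes differed from hypocotyl by 1.94 log2 for JMT, 1.92 for PPDK, 1.86 for CIL and 1.83 for the metallothionein gene MT1C, and by −1.53 for BGLU44, −1.41 for CCL, −1.38 for COR15B and −1.32 for CHL. They differed from root, where 28 °C after 3 h had 2 arrays, by 2.21 for NRPA1, 2.21 for PPDK, 2.11 for JMT and 2.03 for CIL, and by −2.12 for EXPA8, −1.60 for the pyruvate decarboxylase gene PDC2, −1.58 for BGLU44 and −1.58 for CHL. By their medians, JMT in hypocotyl (3.73) and root (3.64) and CIL in root (3.64) were under the dim cutoff of 4.03. The sizes of these organ differences are thus uncertain. Outside the genes tested, 1747 of 8730 probe sets that the annotation does not list passed the cotyledon difference (20%), 1029 higher and 718 lower. Groups of 3 arrays are too small for the check of single outlying samples.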

How the results depend on the processing

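The direction of the difference was kept in every alternative for the 112 named genes that passed it, and 84 of them passed in each alternative that tested them, or 100 when only single arrays were left out. Counts of all comparisons and classes stayed within 1.5 times under the settings not named here. With the 12 cotyledon arrays alone (8 residual degrees of freedom), lower differences numbered 569, fading rises 147, turning down 39 and unclassified 64. At an adjusted p under 0.01 the 3 h effect was higher for 910 genes, the 24 h effect lower for 1181, the difference lower for 483, the 20 °C change higher for 594 and the 28 °C change lower for 752. The cotyledon minus hypocotyl difference then passed for 244 higher and 89 lower, and the cotyledon minus root difference for 561 and 258. Growing falls were 291, fading rises 132, turning up 206, turning down 28 and unclassified 72. Against a 1.2-fold minimum (limma's treat), counts higher and lower were 679 and 498 for the 24 h effect, 388 and 543 for the 3 h effect, 579 and 219 for the difference, 453 and 313 for the 28 °C change, 278 and 451 for the 20 °C change, 168 and 49 against hypocotyl, and 419 and 193 against root. Growing rises and falls were 220 and 125, fading 46 and 190, turning up 80 and down 7. With all 22746 probe sets as features, and so more features tested, the same counts were 3857 and 3184, 2737 and 3001, 2397 and 1681, 2970 and 2331, 1823 and 2621, 824 and 430, and 1682 and 1108, with classes of 1001 and 923, 511 and 736, 575 and 132, and 200 unclassified. Without 1 cotyledon array at a time, the difference was higher for 1159 to 1338 genes and lower for 758 to 908, turning up held 273 to 319 genes and fading rises 185 to 264. Centring arrays on their medians made 49.4% of the calls of the difference higher, against 59.0%. With the replicate block 2130 genes passed, of which 1990 had passed without it, and whether same-numbered samples belong together was not established. Fewer UDP-glycosyltransferase genes were lower (1 in place of 3) without 24 h 20 °C replicate 2.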
